A study of Mus musculus with 4 samples.

Results

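The genes described here encode the proteins that carry glucose into a cell, commit it to glycolysis and carry lactate out again. They are the glucose carriers Slc2a1 and Slc2a3, the hexokinases Hk1, Hk2 and Hk3, the phosphofructokinases Pfkl, Pfkm and Pfkp, and the monocarboxylate carriers Slc16a1 and Slc16a3. All 10 were found by symbol among 55573 mouse gene identifiers, and all 10 were among the 13281 genes tested. The libraries were made from bone marrow B cells of C57BL/6 mice aged 8 to 12 weeks, sorted as Fr.C+C', which in Hardy's fractions covers early pre-B and late pro-B cells. There were 2 wild type libraries (WT 1, WT 2) and 2 libraries labelled ADAR1 KO (KO 1, KO 2), so n = 2 throughout. ADAR1 is the enzyme that edits adenosine to inosine in double-stranded RNA. The labels give neither the allele, nor a promoter or Cre line that restricts the knockout to a cell type, nor whether separate mice gave the libraries within a group, so p-values reflect a between-library spread that may be technical. The targeted gene Adar was at 15.04 FPKM in WT 1, 14.62 in WT 2, 15.19 in KO 1 and 16.79 in KO 2, and since this level covers all exons it leaves the knockout label unchecked.

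Glucose crosses the plasma membrane through facilitative carriers of the SLC2 (GLUT) family, and a hexokinase then traps it as glucose 6-phosphate. Phosphofructokinase makes the first step that is specific to glycolysis, as a tetramer of liver (L), muscle (M) and platelet (P) type subunits. Lactate leaves through proton-coupled carriers of the SLC16 (MCT) family. The isoenzymes of a step are known to differ between blood lineages. Dividing pre-B cells are known to take up glucose, and neutrophils are known to depend on glycolysis.

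The promoters of both lactate carriers and of the hexokinase genes Hk2 and Hk3 are shown because Hk2, Hk3 and Slc16a3 stood higher and Slc16a1 lower in both KO-labelled libraries. Slc2a3 also stood higher and Pfkm lower. Neither is printed, since Slc2a3 had no sequence available and Pfkm has several start sites listed. Each sequence is the 250 bases before the RefSeq start site on GRCm38.p6, printed 5′ to 3′ on the gene's strand. For Slc16a3 this window lies inside the gene's GENCODE span, which starts farther upstream, at 120948480. Capitals mark ACGTG on either strand, a form of the core of the element bound by hypoxia-inducible factors, and CACGTG, the E-box bound by MYC and its relatives. Other forms of that core, such as GCGTG, were not marked or counted. A CACGTG holds an ACGTG on each strand, so it is counted under both.
Slc16a1, chr3:104638414-104638663, plus strand: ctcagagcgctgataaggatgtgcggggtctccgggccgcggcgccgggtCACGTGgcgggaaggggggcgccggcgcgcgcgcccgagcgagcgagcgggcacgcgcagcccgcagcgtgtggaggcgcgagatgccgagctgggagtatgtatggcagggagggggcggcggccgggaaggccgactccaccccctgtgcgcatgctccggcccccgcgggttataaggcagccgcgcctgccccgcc
Slc16a3, chr11:120948817-120949066, plus strand: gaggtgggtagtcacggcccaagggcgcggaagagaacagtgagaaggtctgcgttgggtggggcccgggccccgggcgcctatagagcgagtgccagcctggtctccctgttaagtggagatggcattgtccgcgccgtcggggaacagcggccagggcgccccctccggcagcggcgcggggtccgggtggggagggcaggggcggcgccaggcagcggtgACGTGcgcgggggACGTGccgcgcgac
Hk2, chr6:82774455-82774704, minus strand: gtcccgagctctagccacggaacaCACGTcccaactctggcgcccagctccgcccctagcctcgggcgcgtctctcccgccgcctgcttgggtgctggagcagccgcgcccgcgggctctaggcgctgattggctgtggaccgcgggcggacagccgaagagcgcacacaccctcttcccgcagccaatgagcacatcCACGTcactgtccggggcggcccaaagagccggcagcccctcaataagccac
Hk3, chr13:55021386-55021635, minus strand: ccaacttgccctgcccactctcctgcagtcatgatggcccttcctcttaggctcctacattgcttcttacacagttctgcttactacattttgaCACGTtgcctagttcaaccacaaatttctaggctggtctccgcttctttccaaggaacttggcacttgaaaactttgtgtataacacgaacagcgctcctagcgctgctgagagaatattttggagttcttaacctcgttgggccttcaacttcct

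The lactate carrier genes differ in these letters: Slc16a1 has 1 CACGTG, while Slc16a3 has 2 separate ACGTG and no CACGTG. Hk2 has 2 ACGTG and Hk3 has 1. Among 32851 windows of the same length in the table, 16.6% hold an ACGTG and 6.02% a CACGTG. The table matched 9 of the 10 genes with 13 windows, since Hk1 has 2 start sites listed and Pfkm 4, and 7 of the 13 windows hold an ACGTG. G and C make up 47.2% of the Hk3 window, against 69.6% for Hk2, 73.6% for Slc16a3 and 76.4% for Slc16a1. A match describes the letters and is no evidence of binding.

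Before the comparison, the libraries were checked against markers of the labelled and of other blood cells. Depth, estimated from the FPKM values and summed over genes, ranged from 15107098 to 16401712 fragments. The summed level of 12 B lineage markers (among them Cd79a, Pax5 and Vpreb1) was 2069 and 2145 FPKM in wild type against 1788 FPKM in KO 1 and 949 FPKM in KO 2, and for 5 of 12 the KO pair lay entirely below the WT pair, as it did for 31.7% of all genes tested. The summed level of 15 neutrophil markers (among them S100a9, Ltf and Elane) was 29009 and 27058 against 37685 and 76904 FPKM. For 13 of the 15 the KO pair lay entirely above the WT pair (19.7% of all genes did), and 0 of the 15 were listed at 0. The 12 erythroid markers summed to 1333 and 779 against 352 and 661 FPKM, with 10 of 12 lower in both KO-labelled libraries (31.7% of all genes were). The 12 monocyte and macrophage markers summed to 357 and 215 against 173 and 297 FPKM, with 2 of 12 higher and 1 lower in both. The 5 plasma cell markers summed to 121 and 108 against 10.85 and 5.55 FPKM, of which Jchain alone gave 105.85 and 91.45 against 0.25 and 0.45 FPKM. The 5 markers of plasmacytoid dendritic cells summed to 58.9 and 49.4 against 79.3 and 95.4 FPKM. The sorted populations thus held transcripts of other lineages in every library, and KO 2 stood apart from the other libraries in both the B lineage and the neutrophil sums. In bulk samples, fewer cells of a type and less RNA per cell cannot be told apart.

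At the level of single genes, the KO-labelled libraries had more Slc2a3, Hk2, Hk3 and Slc16a3 transcript than either wild type library, and less Slc16a1 and Pfkm. None of these differences passed the test over all genes. The test was limma on log2(FPKM + 1), where FPKM is fragments per kilobase of exon scaled to the depth of the library, with Benjamini-Hochberg adjustment and a threshold of 0.05. Of the 10 genes 0 passed, where 27 of all genes tested, or 0.203%, did. An unadjusted p under 0.05 was found for 4 higher genes (Slc2a3, Slc16a3, Hk3, Hk2) and 1 lower gene (Pfkm), beside 6.45% and 6.02% of all genes, and voom on estimated fragments also called 0 of the 10. The KO pair lay entirely above the WT pair for 6 of the 10 genes (19.7% of all genes did) and entirely below for 2 (31.7% did), so the groups did not overlap for 8 of 10 (51.4% of all genes). The log2 change, always KO minus WT, was positive for 7 (38.3% of all genes) and negative for 3 (61.7%). The median log2 change was 0.21 over the 10 genes and -0.09 over all genes tested. The same median was 0.17 for KO 1 and 0.41 for KO 2 taken alone.

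**Figure D1:**
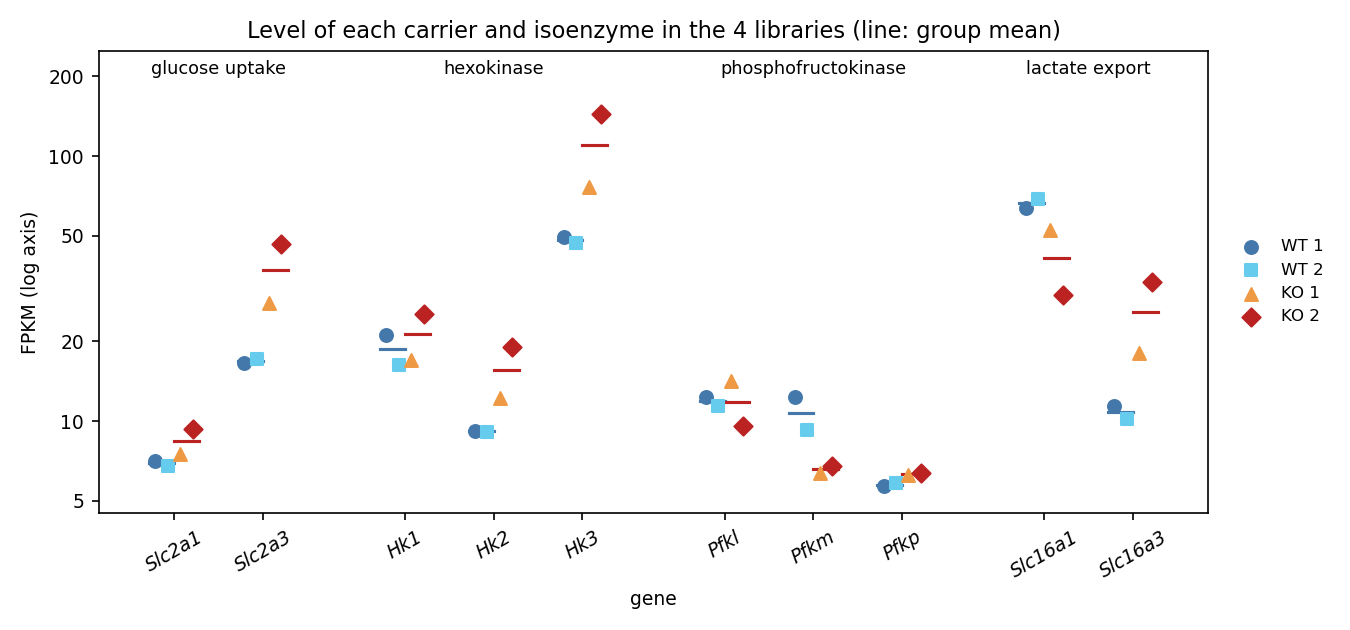
Level of each gene in FPKM (log axis) in the 4 libraries, grouped by step, where points are single libraries and lines are group means. KO 2 holds the highest Hk3 (144 FPKM), Slc2a3 and Slc16a3 values and the lowest Slc16a1 value (30.04 FPKM).

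Levels within a library can be set side by side because FPKM is scaled to length, here the length of all exons of a gene. The order of levels depends on that choice. For Pfkp all exons span 13401 nt against 4145 nt for the longest coding transcript, and for Slc16a1 both are 4426 nt. Genes such as Pfkp thus stand lower here than they would by coding transcript. In wild type the order of mean levels was Slc16a1 (66.4 FPKM), Hk3 (48.3), Hk1 (18.7), Slc2a3 (16.9), Pfkl (11.9), Slc16a3 (10.81), Pfkm (10.78), Hk2 (9.15), Slc2a1 (6.93) and Pfkp (5.77). Between neighbours in this order, Hk1 and Slc2a3 overlapped in range over the 2 libraries, as did Slc16a3 and Pfkm. In the KO-labelled libraries Hk3 came first (110 FPKM) and Slc16a1 second (41.4), and from Slc16a1 through Slc2a3, Slc16a3, Hk1 and Hk2 to Pfkl each gene overlapped with the next. Slc2a1, Pfkm and Pfkp held the lowest 3 places there, where in wild type these were Hk2, Slc2a1 and Pfkp.

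Among the glucose carriers, Slc2a3 was the more abundant transcript in every library and the one with the larger difference. Slc2a3 encodes GLUT3, a high-affinity glucose carrier of neurons and white blood cells (ENSMUSG00000003153, GRCm38 chromosome 6, 122727809 to 122801640). It was at 16.64 FPKM in WT 1, 17.12 in WT 2, 27.8 in KO 1 and 46.62 in KO 2. Both KO-labelled libraries were above both wild type libraries, which differed little from each other. The means were 16.9 ± 0.339 and 37.2 ± 13.3 FPKM (SD, n = 2), a ratio of 2.2, and the log2 change of 1.05 ± 0.26 (SE, 95% interval 0.38 to 1.72) did not pass (adjusted p = 0.337, limma).

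Slc2a1 encodes GLUT1, the basal glucose carrier of most cells, which is abundant in erythroid cells and induced in activated lymphocytes (ENSMUSG00000028645, chromosome 4, 119108711 to 119137983). It stood at 7.09 FPKM in WT 1 and 6.76 FPKM in WT 2 and at 7.54 and 9.34 FPKM in KO 1 and KO 2. The groups did not overlap, but KO 1 exceeded WT 1 by less than KO 2 exceeded KO 1. The log2 change was 0.25 ± 0.16 (adjusted p = 0.524, limma), on 389 to 495 estimated fragments per library, one of the 2 thinnest counts among these genes.

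Slc2a3 therefore made up a larger part of glucose carrier transcript in both KO-labelled libraries. Its share of the summed FPKM of both carriers was 70.1% and 71.7% in WT 1 and WT 2, 78.7% in KO 1 and 83.3% in KO 2. The difference between group means was 10.1 percentage points, with no overlap between groups. Shares were not tested, since 2 libraries against 2 cannot give an exact permutation p below 0.333. The summed level of both carriers was 23.7 and 23.9 FPKM in the WT pair and 35.3 and 55.96 FPKM in the KO pair.

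The summed neutrophil markers moved with Slc2a3. Relative to the wild type mean, Slc2a3 stood at 1.65 in KO 1 and 2.76 in KO 2, and the summed neutrophil markers stood at 1.34 and 2.74. A few abundant transcripts weigh most in this sum: S100a9 alone gave 11647 of 29009 FPKM in WT 1. Relative to their own wild type means, single markers ranged from 0.98 (Chil3) to 2.38 (Mmp9) in KO 1. In KO 2 they ranged from 2.30 (Chil3) to 4.12 (Prtn3). Their part in the Slc2a3 difference was not tested.

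Among the hexokinases, Hk3 led in every library. Hk3 encodes an isoenzyme expressed chiefly in myeloid cells, which lacks the mitochondrial binding segment of hexokinases 1 and 2 (ENSMUSG00000025877, chromosome 13, 55005985 to 55021385). It was at 49.62 FPKM in WT 1, 46.97 in WT 2, 76.28 in KO 1 and 144.16 in KO 2, resting on 2839 to 8027 estimated fragments. KO 2 was higher than KO 1 by more than KO 1 was higher than wild type. The means were 48.3 ± 1.87 and 110 ± 48 FPKM (SD, n = 2), a ratio of 2.28, and the log2 change was 1.10 ± 0.32 (95% interval 0.29 to 1.92, adjusted p = 0.347, limma).

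Hk2 encodes the hexokinase that growth factors and hypoxia induce and that docks on mitochondria (ENSMUSG00000000628, chromosome 6, 82725025 to 82774454). It was at 9.16 FPKM in WT 1, 9.14 in WT 2, 12.18 in KO 1 and 19.13 in KO 2. The wild type libraries were nearly equal and both KO-labelled libraries were above them. Its log2 change of 0.68 ± 0.23 (95% interval 0.09 to 1.27) did not pass (adjusted p = 0.374, limma).

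Hk1 encodes the widely expressed hexokinase, of which erythroid cells use their own first exon (ENSMUSG00000037012, chromosome 10, 62268855 to 62379908). It was at 21.06 FPKM in WT 1, 16.26 in WT 2, 17.07 in KO 1 and 25.46 in KO 2. KO 1 lay between the wild type libraries and KO 2 above them, so the groups overlapped. The log2 change was 0.16 ± 0.24 (95% interval -0.45 to 0.78, adjusted p = 0.740, limma), and without KO 2 its sign turned (-0.11), as it did without WT 2 (-0.013).

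Within the hexokinase step, Hk3 held 62.1% and 64.9% of the summed FPKM in wild type, 72.3% in KO 1 and 76.4% in KO 2. Hk1 held 26.4% and 22.5% in wild type and 16.2% and 13.5% in KO 1 and KO 2. The Hk2 share was 11.5%, 12.6%, 11.5% and 10.1% in the same order, with overlapping groups. Hk3 was at 5.42, 5.14, 6.26 and 7.54 times the level of Hk2 across the libraries, and at 2.36, 2.89, 4.47 and 5.66 times that of Hk1. Hk3 thus gained on Hk1 more than on Hk2. The log2 ratio of Hk3 to Hk1, from log2(FPKM + 1), was 0.94 higher in the KO-labelled libraries, and that of Hk3 to Hk2 0.42 higher.

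The length used for Hk1 bears on these shares. All exons of Hk1 together span 8532 nt, against 4278 nt for its longest coding transcript in the basic annotation, while the figures for Hk3 are 3682 and 3219 nt. With the longest coding transcript as the length, a calculation added after the data were seen, the Hk3 share was 52.2% and 55.9% in wild type, 64.9% in KO 1 and 69.8% in KO 2, and it still led in every library. Hk1 then held 38.6% and 33.8% against 25.3% and 21.5%. Counting error was small beside these differences: the 95% Wilson interval of the Hk3 share of estimated hexokinase fragments was 42.6% to 45% in WT 1 and 60.7% to 62.4% in KO 2, and covers counting error only.

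The summed neutrophil markers moved with Hk3 and Hk2 as well. Relative to the wild type mean, Hk3 stood at 1.58 in KO 1 and 2.98 in KO 2 and Hk2 at 1.33 and 2.09, beside 1.34 and 2.74 for the marker sum. Their part in the hexokinase differences was not tested.

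**Figure D2:**
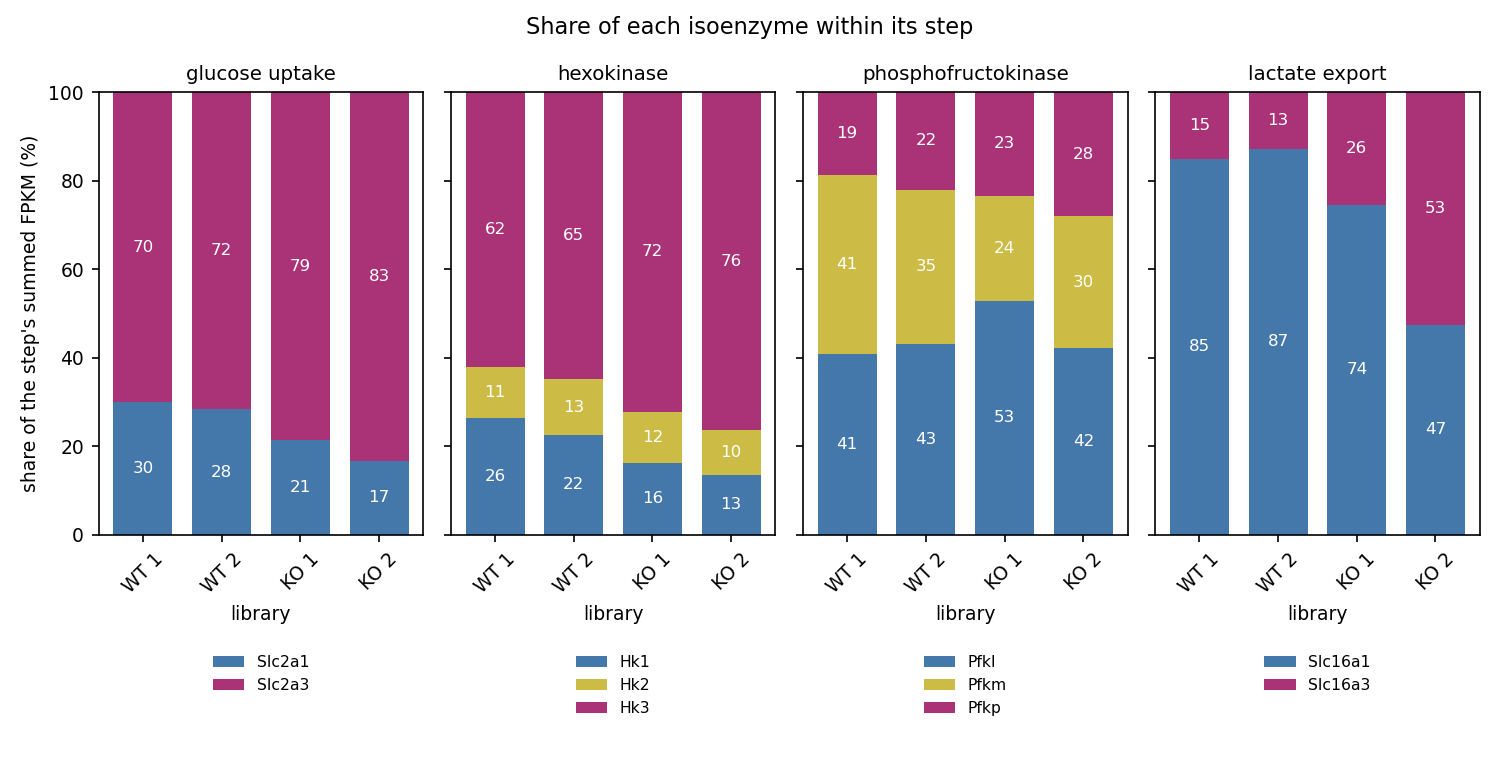
Share of each isoenzyme in the summed FPKM of its step (%), one bar per library, with the 4 steps side by side. Slc2a3, Hk3 and Slc16a3 take larger shares in both KO-labelled libraries than in either wild type library, and Slc16a3 reaches 52.7% in KO 2.

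The phosphofructokinase step did not follow the hexokinases: its summed level was 30.4 and 26.5 FPKM in the WT pair and 26.7 and 22.8 FPKM in the KO pair. Pfkm encodes the muscle type subunit, which red cells also contain (ENSMUSG00000033065, chromosome 15, 98092589 to 98132451). It was at 12.33 FPKM in WT 1, 9.23 in WT 2, 6.35 in KO 1 and 6.79 in KO 2. Both KO-labelled libraries were below both wild type libraries and close to each other. The means were 10.8 ± 2.19 and 6.57 ± 0.311 FPKM (SD, n = 2), and the log2 change was -0.63 ± 0.18 (95% interval -1.09 to -0.17, adjusted p = 0.347, limma), on 336 to 651 estimated fragments per library.

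Pfkl encodes the liver type subunit, found in many tissues and in white blood cells (ENSMUSG00000020277, chromosome 10, 77986947 to 78010083). It was at 12.38 FPKM in WT 1, 11.42 in WT 2, 14.13 in KO 1 and 9.57 in KO 2, so KO 1 was above and KO 2 below both wild type libraries. The log2 change was -0.03 ± 0.21 (95% interval -0.57 to 0.51, adjusted p = 0.953, limma). Its sign turned under all 4 other scalings (0.035 with quantile normalization, 0.041 with median centring, 0.015 with totals that leave out immunoglobulin and neutrophil genes, and 0.56 with B lineage markers), and without WT 1 or KO 2.

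Pfkp encodes the platelet type subunit (ENSMUSG00000021196, chromosome 13, 6579768 to 6648777). It was at 5.69 and 5.84 FPKM in wild type and at 6.26 and 6.39 FPKM in KO 1 and KO 2. The groups did not overlap, but the difference was small, with means of 5.77 ± 0.106 and 6.33 ± 0.0919 FPKM (SD, n = 2). Its log2 change came to 0.11 ± 0.14 (95% interval -0.24 to 0.46, adjusted p = 0.690, limma).

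The muscle type subunit took a smaller share of the step in both KO-labelled libraries. Pfkm held 40.6% and 34.8% of the summed FPKM in wild type against 23.7% in KO 1 and 29.8% in KO 2, and Pfkp 18.7% and 22.05% against 23.4% and 28.1%. Pfkl held 40.7% and 43.1% against 52.8% and 42.1%, with overlapping groups. The order of the subunits depends on the length used. The exons of Pfkp span 13401 nt in all and 4145 nt in its longest coding transcript. With the latter Pfkp held 33.5% and 37.7% in wild type, above Pfkm at 26.1% and 21.4%. In KO 2 Pfkp then came first, at 45.2% against 37.5% for Pfkl, while Pfkl led in WT 1, WT 2 and KO 1. The Pfkm share stayed lower in both KO-labelled libraries (13.9% and 17.3%).

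Erythroid markers were low in the libraries where Pfkm was low. Relative to the wild type mean, Pfkm stood at 0.589 in KO 1 and 0.63 in KO 2, and the summed erythroid markers at 0.333 and 0.625. Within wild type, WT 1 had more of both than WT 2. Their part in the Pfkm difference was not tested.

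The lactate carriers differed in opposite directions. Slc16a1 encodes MCT1, which carries lactate and pyruvate both ways in most tissues (ENSMUSG00000032902, chromosome 3, 104638668 to 104658462). It was at 63.91 FPKM in WT 1, 68.92 in WT 2, 52.77 in KO 1 and 30.04 in KO 2, so both KO-labelled libraries lay below. The means were 66.4 ± 3.54 and 41.4 ± 16.1 FPKM (SD, n = 2), 1.6 times higher in wild type. The log2 change of -0.72 ± 0.28 (95% interval -1.45 to 0.0047) did not pass (adjusted p = 0.404, limma).

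Slc16a3 encodes MCT4, the lactate exporter of strongly glycolytic cells and a target of hypoxia-inducible factors (ENSMUSG00000025161, chromosome 11, 120948480 to 120960868). It was at 11.39 FPKM in WT 1, 10.23 in WT 2, 18.08 in KO 1 and 33.42 in KO 2. Both KO-labelled libraries were above, and KO 2 exceeded KO 1 by more than KO 1 exceeded wild type. The means were 10.8 ± 0.82 and 25.8 ± 10.8 FPKM (SD, n = 2), a ratio of 2.38 and the largest of the 10 genes. Its log2 change came to 1.12 ± 0.30 (95% interval 0.35 to 1.89, adjusted p = 0.345, limma).

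Their summed level was 75.3 and 79.15 FPKM in the WT pair and 70.85 and 63.46 FPKM in the KO pair. KO 1 and KO 2 thus lay below wild type, at 0.917 and 0.822 of its mean. The mixture varied more widely. Slc16a1 exceeded Slc16a3 by 5.61 and 6.74 times in WT 1 and WT 2 and by 2.92 times in KO 1, and in KO 2 it stood at 0.899 of Slc16a3. The Slc16a3 share was 15.1% and 12.9% in wild type, 25.5% in KO 1 and 52.7% in KO 2. The difference between group means was 25.1 percentage points and was 11.5 points without KO 2. KO 1 and KO 2 (SD 19.2 points) thus lay farther from each other than the group means did.

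Different markers moved with each lactate carrier. Relative to the wild type mean, Slc16a1 stood at 0.795 in KO 1 and 0.452 in KO 2, and the summed B lineage markers at 0.849 and 0.45. Slc16a3 stood at 1.67 and 3.09, and the summed neutrophil markers at 1.34 and 2.74. In KO 1 the B lineage sum was lowered by Cd79a, at 0.444 of its wild type mean. The median log2 change of the 12 B lineage markers was -0.05 in KO 1 and -0.99 in KO 2. That of Slc16a1 was -0.33 and -1.12, so in KO 1 Slc16a1 stood lower than most B lineage markers. The part of either marker set in these differences was not tested.

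**Figure D3:**
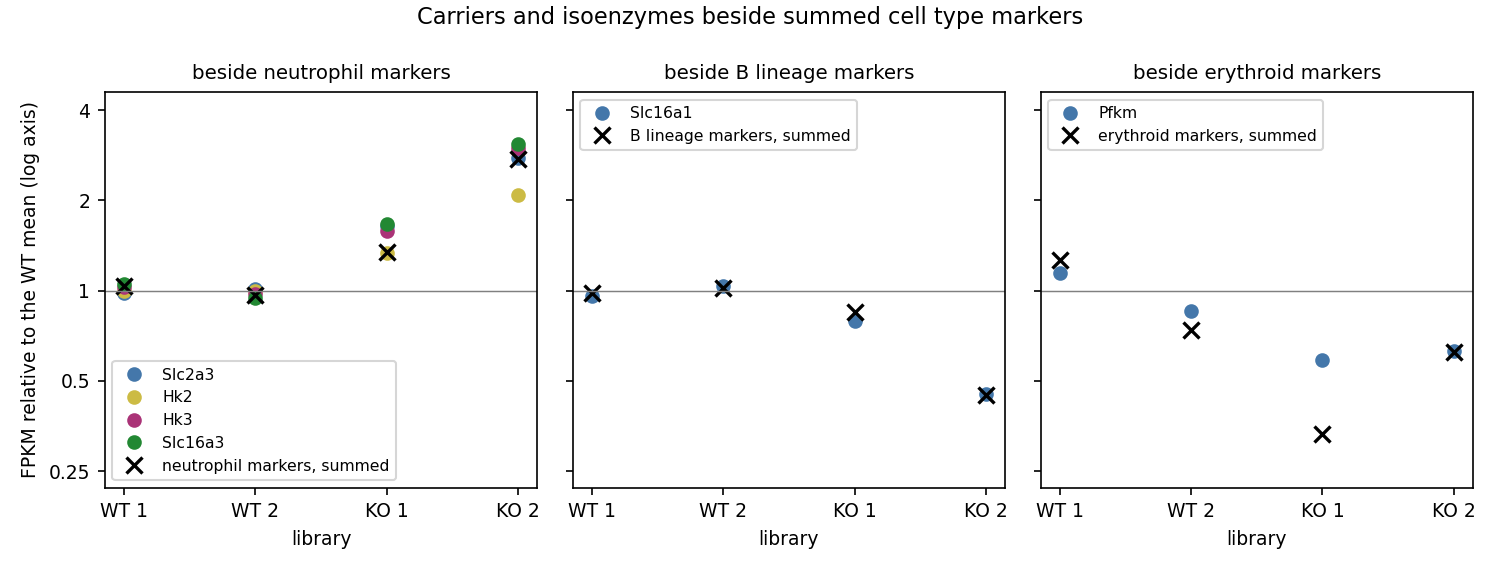
FPKM of 6 genes and summed FPKM of 3 marker lists in each library, relative to the wild type mean of each (log axis). In KO 2 the neutrophil sum is at 2.74 beside 3.09 for Slc16a3, and the B lineage sum at 0.45 beside 0.452 for Slc16a1.

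Most of these differences were larger in KO 2 than in KO 1. Taken alone against wild type, KO 1 gave log2 changes of 0.69 for Slc2a3, 0.38 for Hk2, 0.65 for Hk3, 0.69 for Slc16a3 and -0.33 for Slc16a1, and KO 2 gave 1.41, 0.99, 1.56, 1.55 and -1.12. Pfkm was the exception, with -0.67 for KO 1 and -0.58 for KO 2. Without KO 1, 5 of the 10 genes passed: Slc2a3, Hk3, Slc16a3 and Slc16a1 (adjusted p = 0.0426 for each, limma) and Hk2 (0.0432), when 4.21% of all genes were called higher and 2.88% lower. That fit has a single KO-labelled library, which is assumed to vary like the wild type libraries. Without KO 2, 0 of the 10 passed in limma, and 0 of all genes did, although 1114 higher and 855 lower genes had an unadjusted p under 0.05.

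**Figure D4:**
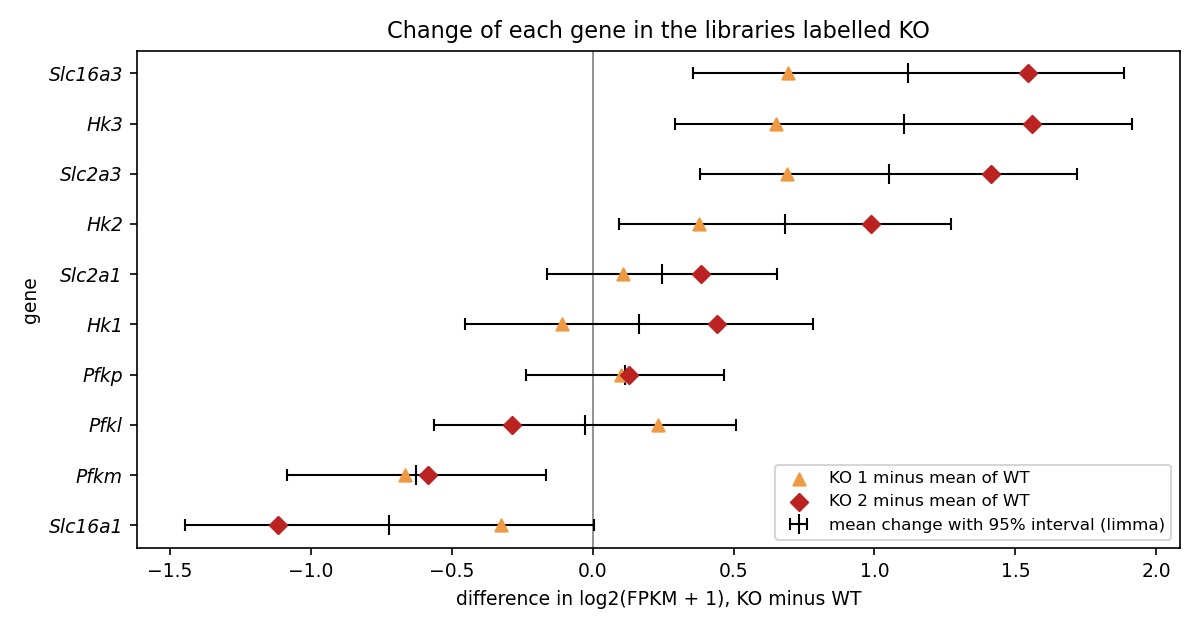
Difference in log2(FPKM + 1), KO minus WT, for each gene, with KO 1 and KO 2 as points against the wild type mean and the 95% interval of the mean change from limma. The KO 2 point lies farther from 0 than the KO 1 point for Slc16a3, Hk3, Slc2a3, Hk2 and Slc16a1, and the Pfkm points lie close together at -0.67 and -0.58.

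Scaling the libraries to equal B lineage markers asks how the genes stand relative to B cell transcript. It moved the median log2 change of all genes from -0.09 to 0.45. With it Slc2a3, Hk3 and Slc16a3 passed (adjusted p = 0.0445, 0.043 and 0.0307, limma), when 1.67% of all genes were called higher and 0.971% lower. Their log2 changes were then 1.66 ± 0.51, 1.73 ± 0.53 and 1.72 ± 0.50 (SE), against 1.05 ± 0.26, 1.10 ± 0.32 and 1.12 ± 0.30 without it. The SEs thus grew by more than the changes, so the smaller p-values do not mean a clearer difference. Relative to the median of all genes the log2 changes of Slc2a3, Hk3 and Slc16a3 were 1.21, 1.28 and 1.27, and without this scaling they were 1.14 to 1.21. Slc16a1 was then at -0.10 and Pfkm at -0.05 (adjusted p = 0.887 and 0.936, limma), or -0.55 and -0.51 relative to the median.

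The other genes of glycolysis were read from a list of 24 enzymes, of which 19 were tested. Of these 0 passed in limma (6 higher and 2 lower at an unadjusted p under 0.05), 11 had the KO pair entirely above the WT pair and 3 entirely below. For this and the next 4 lists, the shares over all genes tested were 19.7% above, 31.7% below, and 6.45% higher and 6.02% lower at an unadjusted p under 0.05. The median log2 change of the 19 enzymes was 0.23. In all 5 lists voom called 0 genes. Pfkfb4, a kinase and phosphatase that makes the activator of phosphofructokinase, was at 11.40 and 11.56 FPKM in the WT pair and 18.62 and 35.56 FPKM in the KO pair, highest in KO 2 as Hk3 was. Pklr, the pyruvate kinase of liver and red cells, was at 15.29 and 10.79 FPKM in the WT pair and 6.67 and 7.97 FPKM in the KO pair. Bpgm, the red cell enzyme that makes bisphosphoglycerate, was at 6.46 and 6.04 FPKM in the WT pair and 3.52 and 4.39 FPKM in the KO pair. The log2 changes of Pfkfb4, Pklr and Bpgm were 1.10, -0.74 and -0.55 (adjusted p = 0.345, 0.345 and 0.352, limma). Pklr and Bpgm were lower in both KO-labelled libraries, as were Pfkm and the summed erythroid markers. Slc2a1 (log2 change 0.25) and Hk1 (0.16), also used by erythroid cells, were not. The part of erythroid cells in these differences was not tested. Gapdh, named here after its values were seen, was listed at 4.2 to 6.72 FPKM, far below Tpi1 at 75.74 to 81.86 FPKM. Gapdh has many near-identical pseudogene copies that can share its reads, and the treatment of such reads by the authors is not known here, so its level is uncertain.

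Among 25 other sugar and monocarboxylate carriers and their chaperones, 8 were tested, 0 passed in limma (3 higher and 0 lower unadjusted), 3 were above and 0 below, and the median log2 change was -0.05. The 3 were Slc2a6, a carrier of the GLUT family (4.85 and 4.17 against 7.27 and 13.34 FPKM), Slc16a6 (9.59 and 8.45 against 11.49 and 15.17 FPKM) and Emb. Emb encodes embigin, a chaperone of monocarboxylate carriers, and was at 8.94 and 10.54 FPKM in the WT pair and 13.07 and 22.90 FPKM in the KO pair. Their log2 changes of 0.99, 0.51 and 0.78 did not pass (adjusted p = 0.351, 0.385 and 0.385, limma).

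Of 22 regulators of glycolysis and hypoxia signalling, 20 were tested, 0 passed in limma (1 higher and 0 lower unadjusted), 6 were above and 3 below (19.7% and 31.7% of all genes), and the median log2 change was -0.005. Egln3, an oxygen-sensing prolyl hydroxylase that is itself induced by hypoxia, was at 3.33 and 3.78 FPKM in the WT pair and 5.05 and 6.43 FPKM in the KO pair. Tigar, a p53 target with phosphatase activity toward sugar phosphates, was at 2.82 and 3.16 FPKM in the WT pair and 4.18 and 3.74 FPKM in the KO pair. Mlx, the partner of glucose-sensing transcription factors, was at 20.74 and 20.57 FPKM in the WT pair and 22.49 and 28.05 FPKM in the KO pair. Their log2 changes were 0.56, 0.31 and 0.27 (adjusted p = 0.370, 0.462 and 0.5, limma).

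Of 14 hypoxia response genes outside glycolysis, 12 were tested, 0 passed in limma (3 higher and 0 lower unadjusted), 4 were above and 1 below, with a median log2 change of 0.09. Vegfa, an angiogenic growth factor, was at 14.78 and 12.89 FPKM against 25.46 in KO 1 and 21.40 in KO 2 (log2 change 0.72 ± 0.16, adjusted p = 0.296, limma). In contrast to Slc16a3 and Hk3, Vegfa was not highest in KO 2. Ndrg1, a stress-induced gene, was at 5.74 and 5.85 FPKM in the WT pair and 8.17 and 9.38 FPKM in the KO pair, and Mxi1, a MYC antagonist, at 10.77 and 9.86 FPKM in the WT pair and 12.81 and 18.11 FPKM in the KO pair (adjusted p = 0.345 and 0.395).

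Of 21 genes of the pentose phosphate pathway and of pyruvate entry into mitochondria, 20 were tested, 0 passed in limma (3 higher and 0 lower unadjusted), 6 were above and 8 below (19.7% and 31.7% of all genes), and the median log2 change was 0.01. The 3 with the smallest p belong to the pentose phosphate pathway, which supplies NADPH and pentoses from glucose 6-phosphate. G6pdx was at 65.97 and 61.82 FPKM in the WT pair and 87.07 and 168.40 FPKM in the KO pair, Pgd at 49.14 and 45.98 FPKM in the WT pair and 66.56 and 113.69 FPKM in the KO pair, and Tkt at 119.46 and 106.94 FPKM in the WT pair and 140.86 and 186.82 FPKM in the KO pair. KO 2 was above KO 1 for each, as for Hk3, and none passed (adjusted p = 0.385, 0.370 and 0.400, limma). The summed neutrophil markers were also highest in KO 2, and their part in these differences was not tested.

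The genes nearest in pattern to each member were sought among 7372 genes, by the distance between log2(FPKM + 1) values centred on each gene's mean over the 4 libraries. With 4 libraries this is a description. Hk3 lay nearest to Alox5 (distance 0.057, with FPKM of 21.25 and 20.28 in the WT pair and 32.53 and 60.13 in the KO pair) and Siglece (0.061). Slc16a3 lay nearest to Cebpb (0.075, with FPKM of 44.01 and 37.42, then 67.91 and 124.51) and Wfdc21 (0.077). For Slc2a3 the nearest were Atp11a (0.027) and Slpi (0.039), and for Hk2 they were Glrx (0.025) and Mgst1 (0.041). For the genes with lower levels in the KO-labelled libraries, Slc16a1 lay nearest to Slc30a4 (0.030) and Snn (0.042), and Pfkm to Ank (0.098) and Minpp1 (0.0996). The nearest genes were Tmem164 (0.024) and Surf4 (0.028) for Slc2a1, Msrb2 (0.060) and Khk (0.077) for Hk1, Bcl7b (0.016) and Rpf1 (0.022) for Pfkl, and Idua (0.011) and Fam53c (0.019) for Pfkp. With a pseudocount of 0.1, 10 of the 20 pairings remained.

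**Figure D5:**
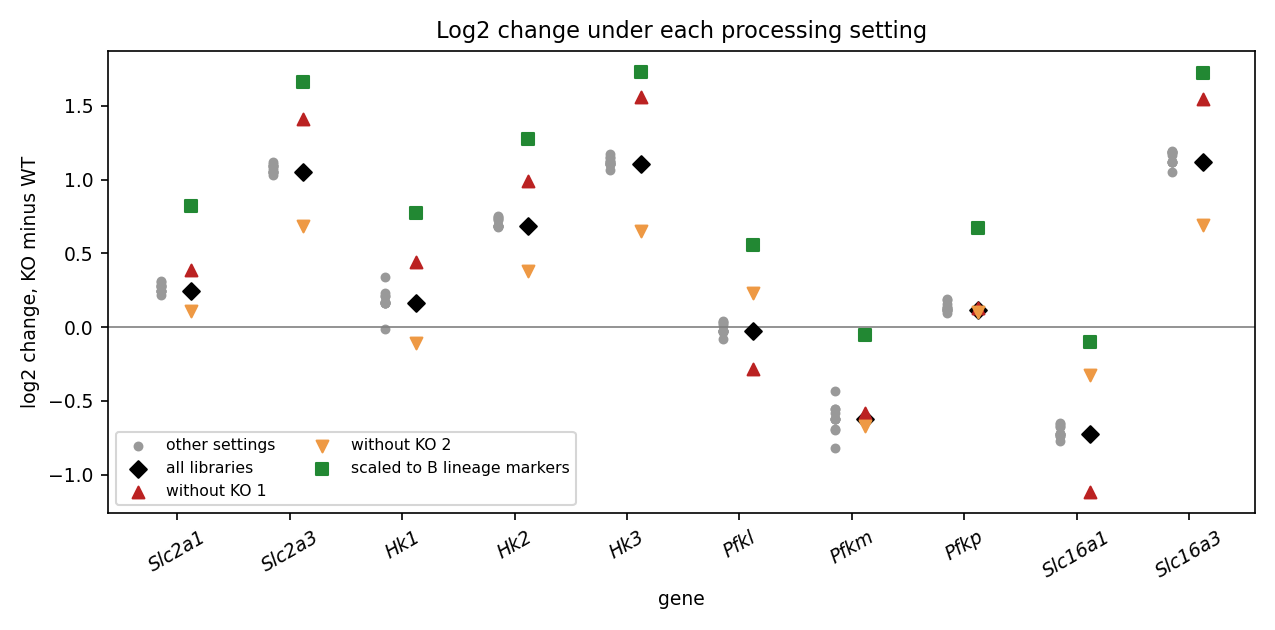
Log2 change (KO minus WT) of each gene under each of the 15 processing settings, with all libraries as black diamonds and 3 settings picked out in colour. Slc2a3, Hk2, Hk3 and Slc16a3 stay above 0 in every setting shown, Slc16a1 and Pfkm stay below, and Pfkl and Hk1 cross 0.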

How the data were processed

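RNA sequencing of 4 libraries was read from 1 table per library. The authors deposited FPKM values with 2 decimals for 55573 Ensembl gene identifiers, per the file headers; the genome build in the submitters' processing notes is mm9, and the aligner and counter were not given in the sources used here. Gene symbols (55394 identifiers), exon lengths and coordinates came from GENCODE M21 (GRCm38), and promoters from RefSeq (GRCm38.p6). For Aldoa, which has several identifiers, the lowest was used. Fragments were estimated from FPKM, exon length and the step of 1 fragment; of values up to 20 fragments, 99.5% to 99.6% fell within 0.15 of a whole number (chance 30%). Genes whose mean reached 1 FPKM in 1 group or both were tested with limma 3.58.1 (R 4.3.3, trend, no covariate) on log2(FPKM + 1). On simulated data (12952 genes, KO vs WT layout) 24% of the 100 genes given a 2-fold change were called, as were 89.8% of the 98 given a 4-fold change, and 23 unchanged genes. The simulation gave every library the same assumed spread. KO 1 and KO 2 differed more than WT 1 and WT 2 (SD of log2 differences 0.487 against 0.322). The simulated rates therefore need not hold for these data. Named genes were the 10 members, the 3 smallest p of each list and the 2 nearest in pattern. The members and lists were chosen with earlier results of these data known. Alternatives changed the pseudocount, filter, scaling, test, pairing, length and libraries.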

Additional observations from a re-analysis of the deposited data

How the results depend on the processing

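With all libraries 27 genes were called (0 higher, 27 lower). The count was 15 with a pseudocount of 0.1, 0 with no filter on low values (1198 higher and 1059 lower unadjusted), 8 with voom on estimated fragments, 351 (222 higher, 129 lower) with scaling to B lineage markers, and between 0 and 948 when 1 library was left out (14 without WT 1, 29 without WT 2, 948 without KO 1 with 563 higher and 385 lower, 0 without KO 2). Of the 10 members 3 were called with scaling to B lineage markers and 0 to 5 when 1 library was left out. With the replicate block 68 genes were called (7 higher, 61 lower) and 0 members. Same-numbered libraries did not deviate together (correlation -0.149 over 13281 genes), so the numbers are not taken as pairs. With the crossed pairing, chosen after seeing the data, 213 genes (46 higher, 167 lower) and 0 members were called.

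Of 140 member values under alternatives, 124 kept their direction and side of the threshold, 8 newly passed and 8 turned sign: Hk1 without WT 2 (-0.013) and without KO 2 (-0.11; range -0.11 to 0.44 with 1 library left out), and Pfkl with quantile normalization (0.035), median centring (0.041), rescaling without immunoglobulin and neutrophil genes (0.015), scaling to B lineage markers (0.56), without WT 1 (0.026) and without KO 2 (0.23; range -0.29 to 0.23). The cause was not tested. Changing the filter or adding a block leaves the log2 change of a member as it was. Under those alternatives only the side of the threshold could move. Share differences in percentage points moved by more than the replicate spread with fragments not divided by length (Slc2a3 6.35, Hk1 -13.3, Hk2 -0.0998, Hk3 13.4, Pfkm -6.71) and with the longest coding transcript as length (Slc2a3 7.29, Hk1 -12.8), against 10.1, -9.59, -1.21, 10.8 and -10.9 for Slc2a3, Hk1, Hk2, Hk3 and Pfkm by FPKM. Each member had at least 336 estimated fragments per library, and no alternative varied the depth. The SD of log2 differences was 0.487 between KO 1 and KO 2 and 0.322 between WT 1 and WT 2.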
